A study of Homo sapiens with 4 samples.

Results

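The genes described here are the BTB zinc finger genes that carry a ZBTB symbol, in HepG2 cells in which miR-191 was inhibited. They were chosen by name, as every row of the deposited table that has exactly 1 gene symbol beginning with ZBTB and a digit, with the brightest row standing for a gene that has several. This gave 43 genes, of which 41 were among the 14147 genes bright enough to be tested. HepG2 is an established line from a liver tumour. Cells were transfected, by lipid reagent, with anti-miR-191, an antisense inhibitor of that microRNA, or with anti-miR-NC, a negative control, so both groups carry a transfected inhibitor. There were 2 independent experiments, each with an array of either treatment, so n = 2 per group. The labels give neither the dose nor the time after transfection.

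ZBTB proteins pair an N-terminal BTB domain, through which they form dimers and recruit co-repressors such as NCOR, BCOR and histone deacetylases, with C-terminal C2H2 zinc fingers that read DNA. Most act as transcriptional repressors, and BTB domains of several family members also bind the ubiquitin ligase scaffold CUL3. The family is known for lineage decisions in blood cells, for reading methylated DNA and for control of cell cycle inhibitors, and in the liver of mice Zbtb20 represses the fetal gene Afp after birth. A microRNA lowers the level or translation of messenger RNAs that pair with its seed, bases 2 to 8. The mature miR-191 sequence is shown because it is the molecule the inhibitor is directed at. It is the 5p arm as RefSeq gives it on GRCh38.p14, at chr3:49020672-49020694 on the minus strand, with the seed in capitals. The labels do not say which arm the inhibitor matches.

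hsa-miR-191-5p: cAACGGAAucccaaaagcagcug

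The values are RMA intensities on the log2 scale, in which a difference of 1 is a doubling. Array medians over all rows lay between 4.38 and 4.42 after anti-miR-191 and between 4.37 and 4.43 in controls. The interquartile ranges were 3.38 and 3.43 after anti-miR-191 against 3.18 and 3.24 in controls, so values were spread more widely on both inhibitor arrays. Changes are anti-miR-191 minus control within each experiment, and their mean over both experiments is given ± SE. "Rose" and "fell" are used where limma's adjusted p was under 0.05 in the fit that keeps the experiment as a block. Over all 14147 genes tested, 10.1% rose and 3.77% fell. Liver markers were bright, with 10 of 11 listed genes on the array. Their summed level was 101.9 and 97.9 after anti-miR-191 and 103.1 and 104.7 in controls. All 10 had a negative mean change, from -0.06 (SERPINA1) to -1.04 (TTR). However, ALB, APOB, AFP, FGB and TF were not lower in experiment 1. The fibrinogen gene FGB averaged only 4.78 after anti-miR-191 and 5.21 in controls. The 13 measured markers of cells that the line should not hold, such as PTPRC and KRT14, averaged between 2.63 and 5.39 in controls. A control signal inside that range is not shown to be above background, and for such a gene the log2 difference in signal is given but no fold. Of the 43 ZBTB genes, 18 had a control mean above all 13 markers. Signals of different probe sets are not compared as amounts of RNA.

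Of the 41 ZBTB genes tested, 7 rose and 0 fell after anti-miR-191, which is 17.1% risen against 10.1% of all genes. The 7 were ZBTB4, ZBTB6, ZBTB2, ZBTB43, ZBTB7B, ZBTB9 and ZBTB37, with mean changes between 0.63 and 1.22. At an unadjusted p under 0.05, limma counted 13 ZBTB genes higher and 0 lower, against 19.1% and 8.98% of all genes. Without the experiment as a block only ZBTB4 passed, where 3.2% of all genes rose and 0.714% fell. For a single gene, 2 arrays against 2 allow no exact permutation p below 0.333, so the calls rest on the spread that limma shares across genes.

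**Figure D1:**
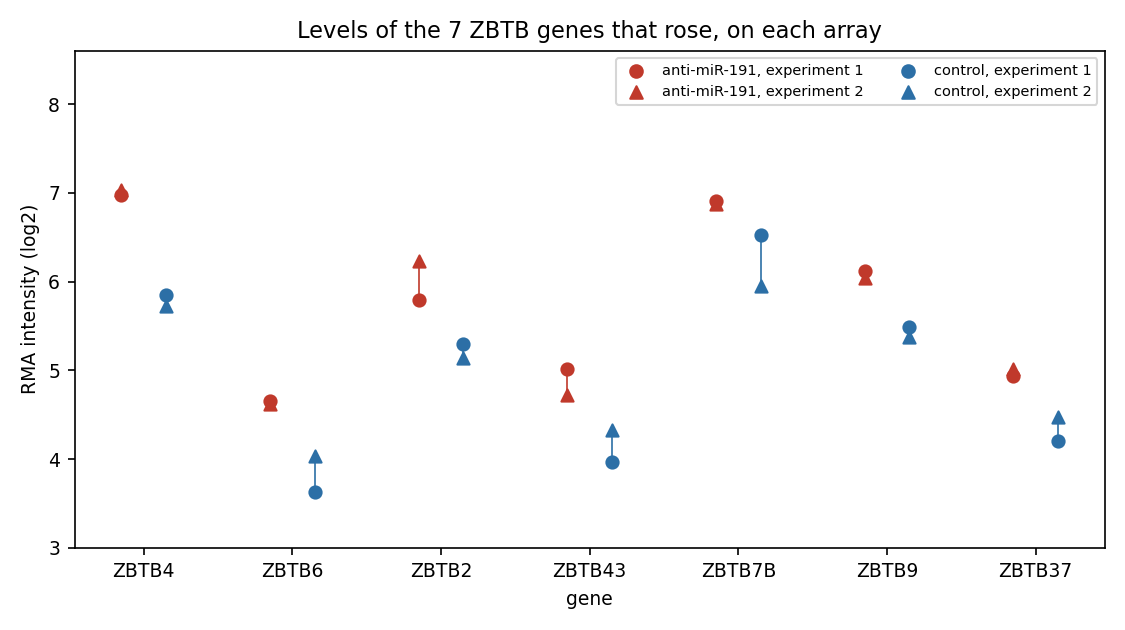
RMA intensity (log2) of the 7 ZBTB genes that rose, on each of the 4 arrays, with anti-miR-191 in red to the left of control in blue, circles for experiment 1, triangles for experiment 2 and a line joining the arrays of a group. In all 7 genes both anti-miR-191 arrays lie above both control arrays, with ZBTB4 at 6.97 and 7.03 against 5.85 and 5.72. The same holds for 29.4% of all genes tested, and the 7 were picked by a test on these same arrays.

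Of the 3 genes whose proteins bind methylated CpG, ZBTB4 rose (33.3%, against 10.1% of all genes), while ZBTB38 and ZBTB33 did not pass. ZBTB4 (probe set 8012212) read 6.97 and 7.03 in experiments 1 and 2 after anti-miR-191, against 5.85 and 5.72 in controls. The anti-miR-191 arrays lay within 0.1 of each other and more than 1 above both controls. ZBTB4 rose 2.33-fold (mean change 1.22 ± 0.15). Limma's adjusted p was 0.0039 with the block and 0.023 without it. ZBTB38 read 6.78 and 6.20 after anti-miR-191, against 5.87 and 5.99 in controls. Its anti-miR-191 array of experiment 1 stood apart, so that its changes were 0.91 and 0.22 in the 2 experiments and limma's adjusted p was 0.098. It had the largest gap between experiments of the tested ZBTB genes, 0.70 lower in experiment 2. A dimmer ZBTB38 row had changes of 0.25 and 0.26. ZBTB33, which encodes Kaiso, a binder of methylated DNA and of p120 catenin, read 3.71 and 3.49 after anti-miR-191, against 3.66 and 3.80 in controls. Those groups overlapped at a level not shown to be above background.

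From general knowledge, 5 genes were grouped for ties to the cell cycle inhibitor CDKN1A or to SP factors. The group need not hold every such gene, as each member was placed in 1 group only. Of the 5, ZBTB2 rose (20%, against 10.1% of all genes). All 5 were higher in both experiments, as were 61% of the tested ZBTB genes and 36.5% of all genes. ZBTB2, reported to repress the p53 pathway and CDKN1A, read 5.79 and 6.23 after anti-miR-191, against 5.30 and 5.14 in controls. Both anti-miR-191 arrays were above both controls, by a wider margin in experiment 2 (change 1.09) than in experiment 1 (0.49). Its mean change was 0.79 ± 0.18, with limma's adjusted p = 0.027 with the block and 0.078 without it. ZBTB17, which encodes MIZ1, the partner through which MYC represses genes, read 7.68 and 7.65 after anti-miR-191, against 7.39 and 7.30 in controls. Its groups did not overlap, but the change of 0.32 ± 0.14 did not pass (limma's adjusted p = 0.20). ZBTB5, another repressor of CDKN1A, had a change of 0.42 ± 0.16, ZBTB10, a repressor of SP genes, of 0.23 ± 0.15, and ZBTB49, an activator of CDKN1A, of 0.18 ± 0.14. The arrays of ZBTB49 overlapped between groups.

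Genes known as targets of ZBTB proteins were taken from general knowledge. Of 15 listed, 13 were tested, 3 rose and 1 fell, against 10.1% and 3.77% of all genes, with a median change of 0.23 against 0.01 over all genes. MYC read 10.11 and 10.52 after anti-miR-191, against 8.63 and 8.50 in controls. ID2, an inhibitor of basic helix-loop-helix factors, had changes of 1.09 and 1.44, and CDKN1A, which ZBTB17 activates and ZBTB5 represses, of 0.50 and 0.93. CDKN2A, whose ARF product is repressed by ZBTB7A in mice, fell by 0.57 ± 0.14 (limma's adjusted p = 0.039), with 5.96 and 5.69 after anti-miR-191 and 6.57 and 6.23 in controls. CDKN2B, the other classical MIZ1 target, had changes of 0.07 and -0.08.

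The 9 genes grouped in the same way under lineage control were the group with the smallest median change, -0.02. ZBTB7B among them rose, a share of 11.1% that is near the 10.1% of all genes. ZBTB7B, which encodes the T cell factor ThPOK, read 6.91 and 6.87 after anti-miR-191, against 6.53 and 5.95 in controls. The controls differed by more than the anti-miR-191 arrays did, and limma's adjusted p of 0.047, for a change of 0.65 ± 0.17, was the highest of the 7 risen genes. ZBTB7B lost its call under all other scalings and both other moderations of the spread, with adjusted p between 0.051 and 0.13. ZBTB7A, a repressor of fetal globin genes, read 7.41 and 7.49 after anti-miR-191, against 6.93 on both controls. Its change of 0.52 ± 0.14 was close between the experiments (0.48 and 0.56) and just missed the threshold, with limma's adjusted p = 0.053 (0.045 with dim rows kept).

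ZBTB20, the repressor of AFP in mouse liver, read 3.74 and 4.05 after anti-miR-191, against 3.67 and 3.50 in controls. That level is not shown to be above background in this line. AFP itself had changes of 0.16 and -1.24 in the 2 experiments and did not pass (limma's adjusted p = 0.29). ZBTB16, which encodes PLZF, a factor of innate-like T cells, read 4.18 and 4.19 after anti-miR-191, against 4.31 and 4.21 in controls. The dendritic cell factor ZBTB46 read 6.18 and 6.26 after anti-miR-191, against 6.24 and 6.25 in controls, with changes of -0.06 and 0.00. ZBTB32 (-0.15), ZBTB18, a repressor that acts in neural development (-0.06), and ZBTB7C (-0.05) had small negative mean changes. ZBTB1, needed for lymphocyte development in mice, had 0.27 ± 0.15. Of 8 listed blood cell markers 7 were measured, and their summed level was 24.91 and 25.01 after anti-miR-191 and 25.4 and 26.2 in controls. PTPRC, which marks all leukocytes, averaged 2.52 after anti-miR-191 and 2.63 in controls.

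Neither of the 2 genes known for genome maintenance passed, where 10.1% of all genes rose and 3.77% fell. ZBTB48, which encodes the telomere-binding protein TZAP, read 6.09 and 6.14 after anti-miR-191, against 5.80 and 5.28 in controls. Its groups did not overlap, and its changes of 0.29 and 0.87 gave limma's adjusted p = 0.074. MTFP1, a mitochondrial gene that TZAP activates, had changes of -0.90 and -0.14 (limma's adjusted p = 0.13). ZBTB24, mutated in an immunodeficiency with unstable centromeric DNA, had changes of -0.03 and 0.17.

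The other risen genes, ZBTB6, ZBTB43, ZBTB9 and ZBTB37, encode proteins whose targets are less well known. ZBTB9 read 6.12 and 6.04 after anti-miR-191, against 5.49 and 5.38 in controls. Its changes of 0.63 and 0.66 were the closest of the 7 risen genes between the 2 experiments, and it rose 1.56-fold (limma's adjusted p = 0.025 with the block and 0.068 without it). ZBTB6 read 4.65 and 4.62 after anti-miR-191, against 3.63 and 4.03 in controls (change 0.81 ± 0.16, limma's adjusted p = 0.019). ZBTB37 read 4.94 and 5.01 after anti-miR-191, against 4.21 and 4.48 in controls (change 0.63 ± 0.15, limma's adjusted p = 0.029). ZBTB43 read 5.01 and 4.72 after anti-miR-191, against 3.97 and 4.33 in controls (change 0.72 ± 0.19, limma's adjusted p = 0.041). Control levels of ZBTB6, ZBTB37, ZBTB43 and also ZBTB2 lay inside the range of the background markers. In all 4 genes both anti-miR-191 arrays were above both controls, as in 29.4% of all genes. The genes were picked by a test on these same arrays, so this separation is no further support.

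The remaining members did not pass. ZBTB21, ZBTB40, ZBTB39, ZBTB45 and ZBTB44 had mean changes between 0.17 and 0.38 and were higher in both experiments. ZBTB25, ZBTB3, ZBTB11 and ZBTB14 had mean changes between 0.08 and 0.16, and ZBTB47, ZBTB26, ZBTB22, ZBTB42 and ZBTB12 between -0.11 and -0.01, with ZBTB26 turning to 0.02 after cyclic loess. ZBTB22 read 6.68 and 6.59 after anti-miR-191, against 6.74 and 6.64 in controls. ZBTB41 and the antisense RNA ZBTB7C-AS2 were too dim to be tested. ZBTB41 had a mean level just below the limit, with changes of 0.29 and -0.08. ZBTB7C-AS2 read 3.20 and 3.01 after anti-miR-191, against 3.51 and 3.23 in controls. ZBTB44-DT, just above the limit, read 3.41 and 3.24 after anti-miR-191, against 3.59 and 3.45 in controls.

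**Figure D2:**
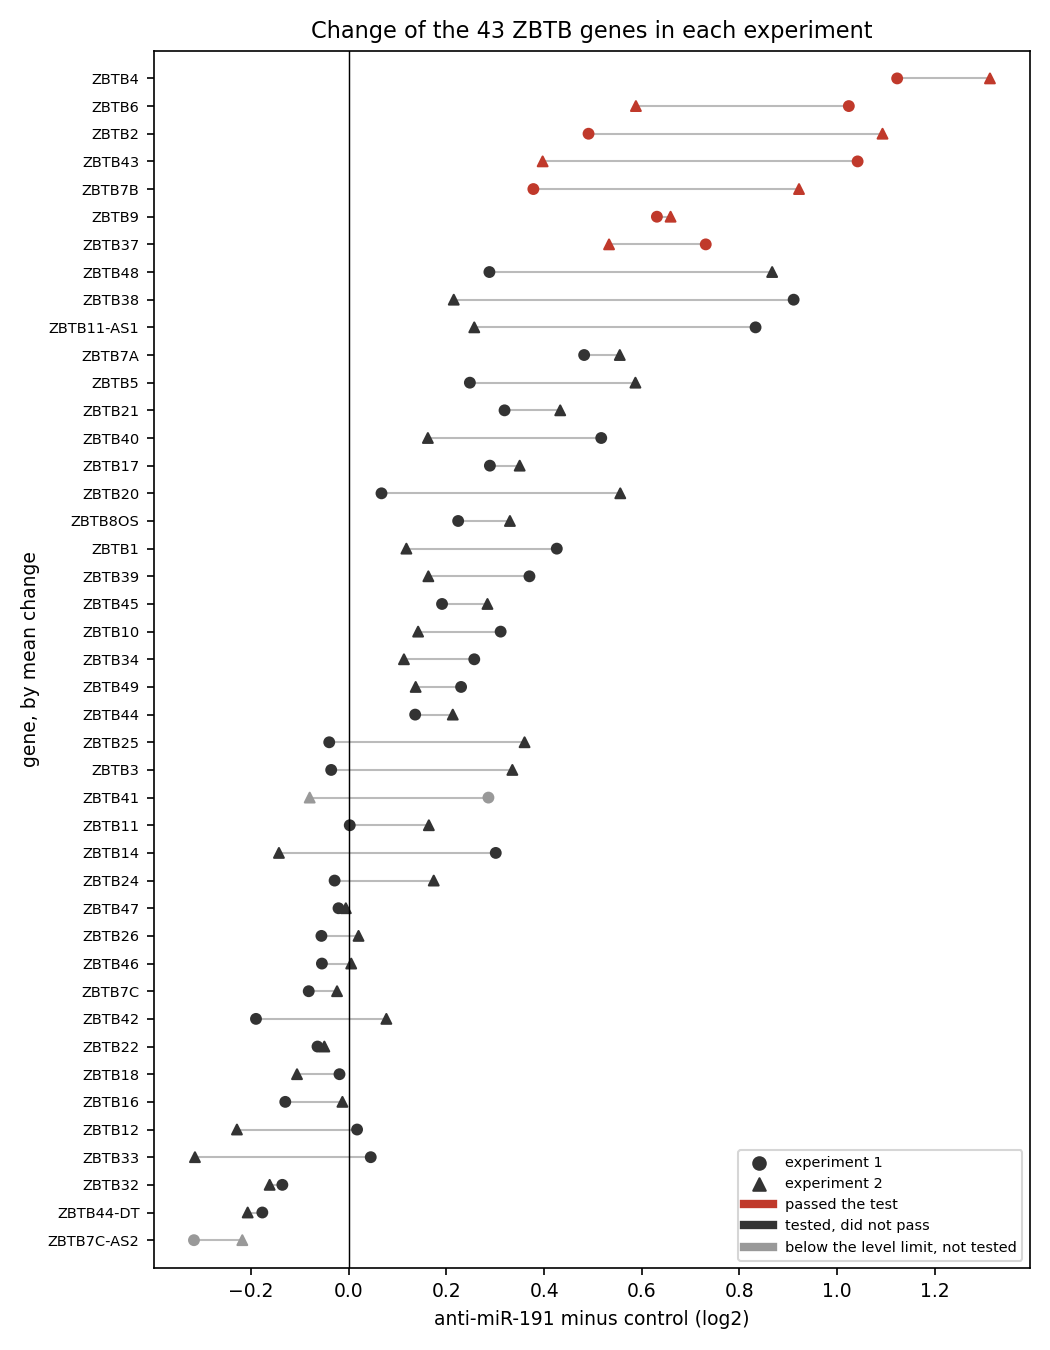
Change of each of the 43 ZBTB genes (anti-miR-191 minus control, log2) in experiment 1 (circles) and experiment 2 (triangles), joined by a line and ordered by the mean change. The 7 risen genes, in red, run from 0.63 (ZBTB37) to 1.22 (ZBTB4), and the lowest mean change of a tested gene is -0.19 (ZBTB44-DT).

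Members of the list that encode no BTB zinc finger protein were ZBTB8OS and the non-coding RNAs ZBTB11-AS1, ZBTB44-DT and ZBTB7C-AS2. ZBTB8OS encodes archease, a cofactor of the tRNA splicing ligase, and had a change of 0.28 ± 0.14 (limma's adjusted p = 0.27). ZBTB11-AS1 had changes of 0.83 and 0.26, while ZBTB11, which it overlaps, had 0.00 and 0.16. Neither passed. ZBTB11 protein is needed for mitochondrial complex I and activates NDUFAF1, which had changes of 0.47 and 0.17 (limma's adjusted p = 0.22).

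In 2 pairs of neighbouring ZBTB genes, 1 gene passed and the other did not, which does not show that they differ. ZBTB6 and ZBTB26 lie next to each other on chromosome 9, and ZBTB6 had changes of 1.02 and 0.59 where ZBTB26 had -0.06 and 0.02. ZBTB43 and ZBTB34, also neighbours on chromosome 9, had 1.04 and 0.40 against 0.26 and 0.11. The differences within these pairs were 1.08 and 0.57 for ZBTB6 over ZBTB26 and 0.78 and 0.28 for ZBTB43 over ZBTB34, and they were not tested. ZBTB34 has 4 rows. Its brightest read 11.41 and 11.26 after anti-miR-191, against 11.16 and 11.15 in controls, and 2 dimmer rows had larger changes (0.43 and 0.42 in 1 row, 0.56 and 0.60 in the other). The dimmest row had changes of -0.10 and 0.22. The rows of ZBTB34 thus disagree in the size of the change and, in experiment 1, also in its sign. The difference of ZBTB43 over ZBTB34 given above therefore depends on the row. In experiment 2 the change of ZBTB43, 0.40, was below those of the 2 dimmer rows, 0.42 and 0.60.

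Promoter sequence was compared within RefSeq windows on GRCh38.p14 that run from 250 bases before to 50 bases after a gene's start. Of the 43 genes, 36 had an entry, with 70 windows because some genes have several starts. The GC box GGGCGG, read on both strands, was present in all 7 windows of the 6 risen genes with an entry. It was in 62.9% of all ZBTB windows and in 63.2% of the 15733 windows of genes tested. These shares count windows and not genes. ZBTB38 has 10 windows and ZBTB20 has 8, most of them without a GC box, and the 2 windows of ZBTB7B overlap. Most ZBTB genes that did not rise also had a GC box in at least 1 window, so it does not set the risen genes apart. The E-box CACGTG was in 12.9% of ZBTB windows and 1 of the 7 windows of risen genes, against 9.13% of windows of genes tested. The cyclic AMP element TGACGTCA was in 5.71%, the AP-1 site TGANTCA in 8.57%, CCAAT in 38.6% and the Kaiso site TCCTGCNA in 7.14% of ZBTB windows, against 2.61%, 5.5%, 33.7% and 4.53% of windows of genes tested. The windows of risen genes held 0 cyclic AMP elements, 0 AP-1 sites and 0 Kaiso sites. Median GC content was 65.7% in windows of risen genes and 62.3% in windows of the other ZBTB genes, against 64.3% in windows of genes tested.

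The promoter windows of ZBTB4, which rose most, and of the neighbours ZBTB43, which passed, and ZBTB34, which did not, are printed 5′ to 3′ along the gene with each GC box in capitals on either strand. They lie at chr17:7484200-7484499 (minus strand), chr9:126804790-126805089 (plus strand) and chr9:126860389-126860688 (plus strand). ZBTB4 holds 2 such matches, ZBTB43 holds 1 and ZBTB34 holds 4.
ZBTB4: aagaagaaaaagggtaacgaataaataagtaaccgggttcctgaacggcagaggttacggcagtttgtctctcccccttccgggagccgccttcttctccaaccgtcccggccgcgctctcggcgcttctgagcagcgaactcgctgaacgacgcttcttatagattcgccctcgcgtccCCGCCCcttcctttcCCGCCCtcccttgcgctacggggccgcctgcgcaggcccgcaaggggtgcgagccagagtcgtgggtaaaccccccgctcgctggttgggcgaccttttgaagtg
ZBTB43: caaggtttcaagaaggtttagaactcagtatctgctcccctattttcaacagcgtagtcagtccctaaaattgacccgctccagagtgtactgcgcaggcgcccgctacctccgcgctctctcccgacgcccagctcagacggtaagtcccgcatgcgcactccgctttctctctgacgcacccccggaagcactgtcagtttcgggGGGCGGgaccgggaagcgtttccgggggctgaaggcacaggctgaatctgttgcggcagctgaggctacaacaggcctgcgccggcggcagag
ZBTB34: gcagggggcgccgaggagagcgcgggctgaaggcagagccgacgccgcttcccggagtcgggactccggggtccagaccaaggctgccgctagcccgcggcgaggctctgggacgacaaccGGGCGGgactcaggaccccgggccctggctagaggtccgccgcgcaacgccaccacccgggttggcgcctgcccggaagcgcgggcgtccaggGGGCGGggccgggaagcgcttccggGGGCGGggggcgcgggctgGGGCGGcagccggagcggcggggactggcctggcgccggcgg

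Over the family, more changes were positive than negative. The median mean change of the 41 tested genes was 0.23 (0.23 in experiment 1 and 0.17 in experiment 2), against 0.01 over all genes tested, and it was 0.18 over all 43 genes. Changes were positive in both experiments for 25 of 41 genes (61%) and negative in both for 7 (17.1%), against 36.5% and 33% of all genes. Both anti-miR-191 arrays lay above both controls for 22 genes (53.7%) and below them for 5 (12.2%), against 29.4% and 23.8% of all genes. ZBTB4, ZBTB6 and ZBTB9 were higher by at least 0.585 on the log2 scale in each experiment, 7.32% of the tested ZBTB genes against 6.45% of all genes, so the share of large changes was near the background. The lowest mean change of a tested ZBTB gene was -0.19, and 21.1% of all genes lay below it. These values describe the list, and no test was made of its difference from other genes.

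**Figure D3:**
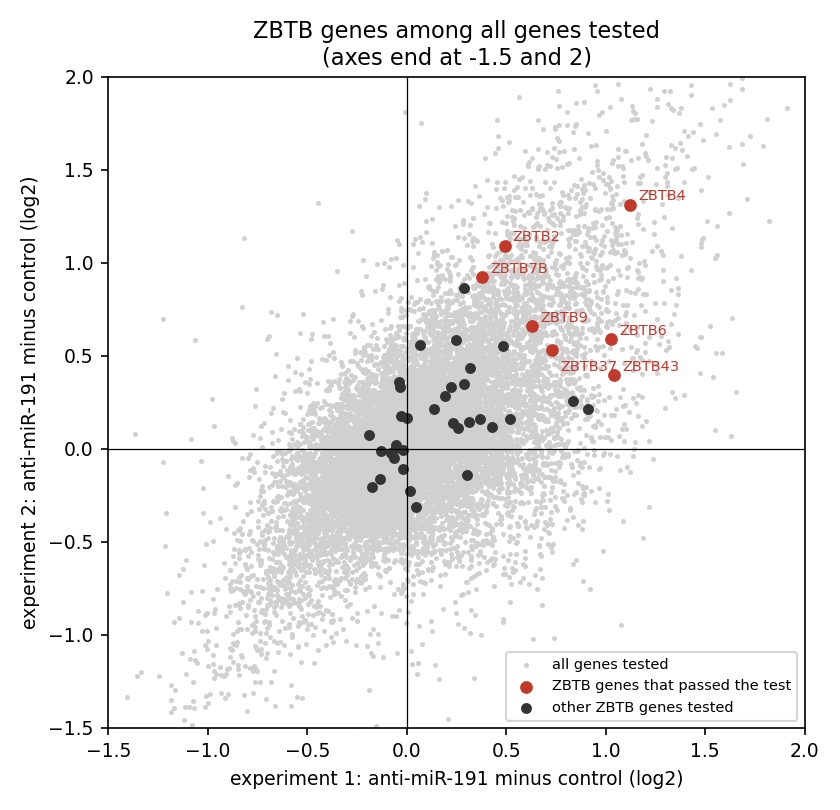
Change (anti-miR-191 minus control, log2) in experiment 1 on the x axis and in experiment 2 on the y axis, with all 14147 genes tested in grey, the 7 risen ZBTB genes in red and the other tested ZBTB genes in black. Among the ZBTB genes ZBTB4 lies furthest out (1.12 and 1.31), though other genes lie further, and the lowest mean change of a tested ZBTB gene is -0.19.

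Across the 41 tested ZBTB genes the changes of the 2 experiments had Pearson r = 0.601 and Spearman rho = 0.638, against 0.678 and 0.578 across all genes. The experiments have separate controls, but the genes share the same 4 arrays and are no independent replicates. The control level was only weakly related to the change (Pearson r = 0.117 across the 41 genes). Among the 4716 genes of lowest mean level, 3.97% rose, and 3 of the 18 ZBTB genes there did, namely ZBTB6, ZBTB37 and ZBTB43. Control levels of these 3 lay inside the range of the background markers. Of the 4715 genes of middle level 11.8% rose, and 3 of the 18 ZBTB genes there did, ZBTB4, ZBTB2 and ZBTB9. Among the 4716 brightest genes 14.5% rose, and 1 of 5 ZBTB genes there did, ZBTB7B.

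BTB zinc finger genes can also carry other symbols. All 8 listed were tested, and 2 rose and 0 fell, against 10.1% and 3.77% of all genes. At an unadjusted p under 0.05 limma counted 5 higher and 0 lower, against 19.1% and 8.98% of all genes, and their median change was 0.44 against 0.01 over all genes. ZNF131 read 5.41 and 5.71 after anti-miR-191, against 4.55 and 4.84 in controls, with the same change of 0.87 in both experiments (limma's adjusted p = 0.010). PATZ1, a regulator of p53 signalling, read 7.51 and 7.62 after anti-miR-191, against 6.99 and 6.86 in controls, and rose 1.55-fold (limma's adjusted p = 0.030). GZF1 (0.50 ± 0.15) and MYNN (0.47 ± 0.14) did not pass. Control levels of ZNF131, GZF1 and MYNN (4.69, 4.75 and 3.25) lay inside the range of the background markers. BCL6, the germinal centre repressor, had changes of 0.08 and -0.18.

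Among partners of BTB proteins, 24 of 28 listed genes were tested, 5 rose and 1 fell, against 10.1% and 3.77% of all genes, with a median change of 0.16 against 0.01 over all genes. MTA2 of the NuRD complex had changes of 0.67 and 1.28, and TBL1XR1, a subunit of the NCOR complex, of 0.74 and 1.20. The control level of TBL1XR1, 4.72, lay inside the range of the background markers. The co-repressor gene BCOR (0.62 and 0.58) and the CoREST gene RCOR1 (0.63 and 0.59) also rose. Components of the CUL3 ubiquitin ligase moved in opposite ways. CUL3 read 6.53 and 6.79 after anti-miR-191, against 5.67 and 6.32 in controls, and rose 1.58-fold (limma's adjusted p = 0.034). RBX1, its RING subunit, read 7.57 and 8.28 after anti-miR-191, against 8.43 and 8.99 in controls, and fell by 0.78 ± 0.15 (limma's adjusted p = 0.014). Neither passed without the block (limma's adjusted p = 0.19 for each). HDAC1 and HDAC7 had changes of 0.37 ± 0.14 and 0.36 ± 0.15 and did not pass.

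A list of BTB genes without zinc fingers, most of which encode adaptors of CUL3 and which does not hold every such gene, gave 7 risen and 0 fallen genes of 45 tested. The 15.6% risen stand against 17.1% of the ZBTB genes and 10.1% of all genes, and 3.77% of all genes fell. At an unadjusted p under 0.05 limma counted 11 higher and 2 lower, against 19.1% and 8.98% of all genes, and the median change was 0.19 against 0.01 over all genes. KLHL21, an adaptor used in cell division, rose 2.2-fold, with changes of 0.85 and 1.42. ABTB2 rose 2.11-fold, KCTD10 rose 1.8-fold and KCTD2 rose 1.48-fold. BTBD10, KLHL18 and KLHL15 also rose, but their control levels of 4.35, 5.34 and 3.12 lie inside the range of the background markers. ABTB3, a gene of this kind that the list lacks and that is named here after its values were seen, also rose, with changes of 0.70 and 0.73 (limma's adjusted p = 0.018). BTBD1 (0.47 ± 0.15) and KLHL26 (0.46 ± 0.16) did not pass.

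**Figure D4:**
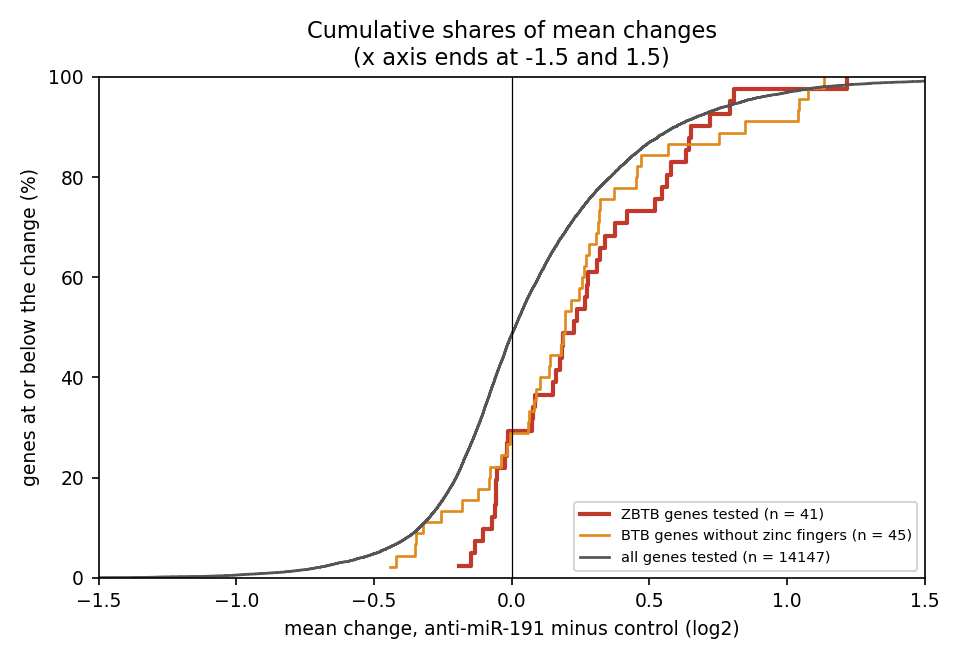
Cumulative share of genes (%) by mean change (anti-miR-191 minus control, log2) for the 41 tested ZBTB genes (red), the 45 tested BTB genes without zinc fingers (orange) and all 14147 genes tested (grey). Both BTB curves lie to the right of all genes around 0, with medians of 0.23 and 0.19 against 0.01, and the ZBTB curve starts at -0.19.

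The 7 calls differed in how far they depended on the processing. ZBTB4 kept its call under every scaling, level limit and moderation of the spread tried and without the block. With the inhibitor array of experiment 1 left out its adjusted p was 0.047, but the lone inhibitor array is then assumed to vary as the controls do. It lost the call when the inhibitor array of experiment 2 (adjusted p = 0.13), the control of experiment 1 (0.095) or the control of experiment 2 (0.10) was left out, each in limma's fit without the block. ZBTB6 and ZBTB37 kept theirs under all 3 other scalings (cyclic loess, quantile normalization and median centring). After quantile normalization 3 ZBTB genes passed, and ZBTB2, ZBTB43, ZBTB7B and ZBTB9 did not (limma's adjusted p = 0.067, 0.066, 0.13 and 0.058). The changes of the 7 genes stayed positive under each of these settings.

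**Figure D5:**
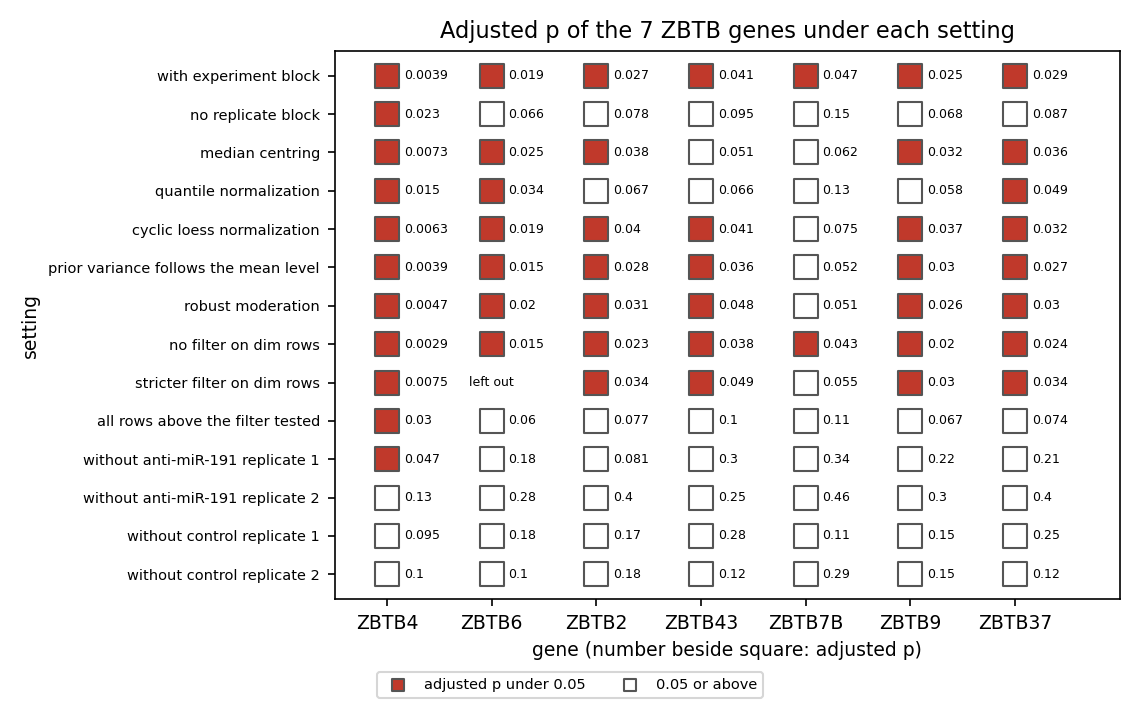
Limma's adjusted p of the 7 risen ZBTB genes (columns) under each setting (rows), with red squares under 0.05, white squares at 0.05 or above and the value printed beside each. The ZBTB4 column is red in 11 of 14 rows, and in the bottom 3 rows, where an array is left out, no gene passes.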

How the data were processed

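Per the labels, total RNA of 4 HepG2 cultures was hybridised to 1-colour Affymetrix arrays, 2 per group. The authors deposited log2 intensities. The submitters' processing notes name RMA and Affymetrix Expression Console. No source used here gives the version or the arrays that went into 1 normalization, and base 2 was inferred from the range of values. RMA intensities have no counting depth, so the number of arrays limits the precision, and the p-values measure only the spread between these arrays. GEO's platform annotation named 1 gene on 19460 rows, more than 1 on 1754 and no gene on 12083. Rows with a mean level below 3.41, the dimmest 33.3%, were left out and the brightest row stood for a gene.

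Changes were tested with limma 3.58.1 (R 4.3.3; lmFit and eBayes, two-sided, Benjamini-Hochberg over all 14147 genes) with the experiment as a block and 1 residual degree of freedom, to which moderation added 6.6. The series text places the duplicates in independent studies and the titles number both groups 1 and 2, so the number marks the experiment. Same-numbered arrays' deviations from their group means correlated at 0.335, a single value with 2 pairs. On simulated data with 14147 genes the blocked fit called 66 of 66 log2 changes of 2 and 67 of 67 changes of 1. It called 22 of 67 changes of 0.585 (32.8%) and 25 of 13947 unchanged genes. The 25 false calls thus outnumbered the 22 true calls at 0.585, and they weigh more among the calls than among the unchanged genes. Beside 66, 67 and 22 true calls, they exceeded the share of 0.05 that the threshold aims at. The simulation left 13947 of 14147 genes unchanged, whereas the blocked fit of the real arrays called 1428 genes higher and 533 lower. The share of false calls among the real calls can therefore differ and is not known. Without the block, the fit called 61 of 66 changes of 2 and 1 of 67 changes of 1. It then called 0 of 67 changes of 0.585 and 0 unchanged genes. Each ZBTB gene is named. Values on every array are given for those past the threshold, the 5 brightest in controls, the 4 with the largest gap between experiments and ZBTB20, ZBTB16, ZBTB17, ZBTB33, ZBTB4 and ZBTB38. Of the lists, members past the threshold and up to 2 others are named. CDKN2B, BCL6, NDUFAF1, FGB and other genes tied to a member were named after their values were seen. The members and lists were chosen with earlier results of these data known. Sequences are RefSeq's. Figures were drawn with matplotlib 3.10.9.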

Additional observations from a re-analysis of the deposited data

How the results depend on the processing

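The gene count depended on the experiment block, on the scaling and on single arrays. With the block, 1428 genes rose and 533 fell. Without the replicate block 452 rose and 101 fell, after quantile normalization 881 rose, with all rows above the level limit tested 927 rose, and at an adjusted p under 0.01 the counts were 432 and 108. Among ZBTB genes 7 rose with the block, 1 without the replicate block, 3 after quantile normalization, 1 with all rows tested and 1 at an adjusted p under 0.01. The median ZBTB change, 0.226, was 0.185 with dim rows kept and 0.165 after quantile normalization. Leaving out 1 array, in fits without the block, gave between 0 and 315 genes higher and between 0 and 24 lower, between 0 and 1 ZBTB genes higher (1, ZBTB4, when the inhibitor array of experiment 1 was left out), and a median ZBTB change between 0.188 and 0.272. In the 3 such fits with 0 calls, limma counted 1189, 1691 and 2250 genes higher and 474, 741 and 928 lower at an unadjusted p under 0.05. The cause of the shifts between scalings was not tested, and fits with fewer arrays have 1 residual degree of freedom.

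For the other lists, the BTB zinc finger genes with other symbols, with 2 higher, had 0 without the replicate block and 1 after quantile normalization, with all rows tested and at 0.01. Their median was 0.407 with the stricter level limit and 0.358 after quantile normalization. The partners, with 5 higher and 1 lower, had 1 and 0 without the replicate block, 2 higher after quantile normalization, 1 higher with all rows tested, and 0 and 0 at 0.01. Targets, with 3 higher and 1 lower, had 1 and 0 without the replicate block. The lower count was 0 with all rows tested, at 0.01 and with a 1.5-fold limit. Their median of 0.23 was 0.125 with dim rows kept, 0.178 with the stricter limit, 0.211 after quantile normalization and 0.212 after cyclic loess. BTB genes without zinc fingers, with 7 higher, had 4 without the replicate block, with all rows tested and at 0.01. Leaving out 1 array gave 0 higher BTB zinc finger genes with other symbols (median 0.395 to 0.457), 0 to 1 higher and 0 lower partners (median 0.159 to 0.276), 0 to 2 higher and 0 lower targets (median 0.092 to 0.336) and 0 higher BTB genes without zinc fingers.

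The sign of small changes turned for 9 genes, none of which passed. ZBTB26 turned to 0.02 after cyclic loess. With 1 array left out, the change ran between -0.013 and 0.381 for ZBTB49, between -0.045 and 0.364 for ZBTB25, between -0.008 and 0.174 for ZBTB11, between -0.167 and 0.326 for ZBTB14, between -0.153 and 0.298 for ZBTB24, between -0.059 and 0.023 for ZBTB26, between -0.062 and 0.012 for ZBTB46, between -0.155 and 0.049 for ZBTB7C and between -0.378 and 0.265 for ZBTB42.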

Other observations

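The row that names both ZBTB8A and ZBTB8B, left out above because it has 2 symbols, read 3.78 and 3.82 after anti-miR-191, against 3.67 and 3.70 in controls. ZBTB12 and ZBTB22 each have 2 rows. Both ZBTB12 rows hold the same values on all 4 arrays, and the dimmer ZBTB22 row had changes of -0.02 and -0.18 where the brighter had -0.06 and -0.05.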
